A study of Homo sapiens with 4 samples.

Results

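Mitochondrial ribosomal proteins are described here as every probe set whose only gene symbol in the platform annotation begins with MRPL or MRPS, followed by a number. The rule took 140 of 54613 probe sets and gave 75 of the 19775 genes with a symbol of their own. Of these genes, 48 carry an MRPL symbol, for the large subunit, and 27 an MRPS symbol, for the small subunit. Each gene was read by its brightest probe set, and all 75 such probe sets lay above the array medians on every array. RefSeq lists 77 genes of such names. The other 2, MRPL53 and MRPS24, are read by probe sets that carry a second symbol and are no members (differences of -0.03 and 0.00). The arrays came from LN-229, an established glioblastoma cell line, with 2 arrays of control cells that were given no inducer and 2 arrays of cells given doxycycline for 48 h to express WIF1, a secreted WNT antagonist. Replicates are biological per the labels, and no group had doxycycline without WIF1, so drug and transgene cannot be told apart. The labels do not say whether the line is 1 clone. WIF1 itself was near the floor of the array, at 2.98 and 2.90 in the control and 2.93 and 3.03 in the induced arrays. Whether its only probe set lies within the expressed sequence is not known here, so it checks no label.

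The mitochondrial ribosome is the machine that makes the few proteins encoded in mitochondrial DNA, all of them core subunits of the respiratory chain and ATP synthase. Its ribosomal RNAs come from the mitochondrial genome, while all its proteins are encoded in the nucleus and imported, so their mRNAs can be read on an array of nuclear transcripts. The small subunit binds the mRNA and decodes it, and the large subunit joins the amino acids and holds the exit for the new protein at the inner membrane. Doxycycline is an antibiotic of the tetracycline class. Tetracyclines bind the small subunit of the bacterial ribosome, and they also slow translation in mitochondria, whose ribosome is of bacterial descent.

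Values are log2 intensities made by the authors, and every difference is induced minus control, with n = 2 arrays in each group. Array medians over all probe sets lay between 6.15 and 6.19. Of 8 markers fixed for the glioma and astrocyte lineage 7 reached the median mean of the probe sets (6.16), with nestin (NES) at 11.85. The exception was the astrocyte filament gene GFAP, which overlapped between groups at a mean of 5.66. Of the markers of other cell types, 0 of 3 for epithelium, 1 of 3 measured for leukocytes, 2 of 3 for endothelium and 3 of 3 for neurons reached 6.16. Those that did lay between 6.25 (SYP) and 7.30 (SNAP25), among them CD3E at 6.72, PECAM1 at 6.91 and VWF at 6.5. PTPRC, CDH5 and EPCAM were low, at 3.79, 3.98 and 3.22. For ACTB, the signal of the 3' probe set minus that of the 5' probe set gave -0.036 and 0.021 on the control arrays, against 0.033 and 0.107 on the induced ones. For GAPDH it was -0.067 and -0.069 against -0.043 and -0.047. Both induced arrays were above the controls in this measure of RNA quality, and its part in the differences below was not tested.

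The genes of the mitochondrial ribosome differed little between the groups. None of the 75 passed limma's test, with a lowest Benjamini-Hochberg adjusted p of 0.472, and 0% of all 19775 genes passed it, although other settings called up to 9 genes, none of them members. The differences of the 75 genes ran from -0.12 to 0.23, with a median of 0.024, beside a median of -0.003 over all genes and 0.006 over the 6350 genes at least as bright as the dimmest member. By sign 47 members (62.7%) were higher and 28 lower, where 48.7% of all genes and 53% of those 6350 genes were higher. Of the members 15 had an unadjusted p under 0.05, which is 20% of them, beside 11.2% of all genes and 18.2% of the equally bright genes. The share among members was thus near that of the genes called equally bright here, which are all those at least as bright as the dimmest member. They were not matched gene by gene, and their median brightness was 9.80, against 10.68 for the members. Of these 15 members 10 were higher and 5 lower, where 6.48% of all genes were higher and 4.73% lower. Of the 6350 equally bright genes 750 were higher and 408 lower at this threshold. Subtracting each array's median gave 15 higher and 0 lower, and cyclic loess 6 higher and 5 lower, so the split depended on the scaling. Of all genes 11.2% and 11.8% then stood past the threshold, in either direction. The median over all genes moved too, to 0.022 after centring and 0.006 after cyclic loess. Without the intensity trend in the variance 0 of the 75 stood at an unadjusted p under 0.05, beside 7.75% of all genes. With 1 array left out a group holds 1 array, so no count is given for those fits. The median difference was then 0.007 to 0.035 over the MRPL genes and 0.016 to 0.04 over the MRPS genes. Over all genes it was -0.01 to 0.003.

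**Figure D1:**
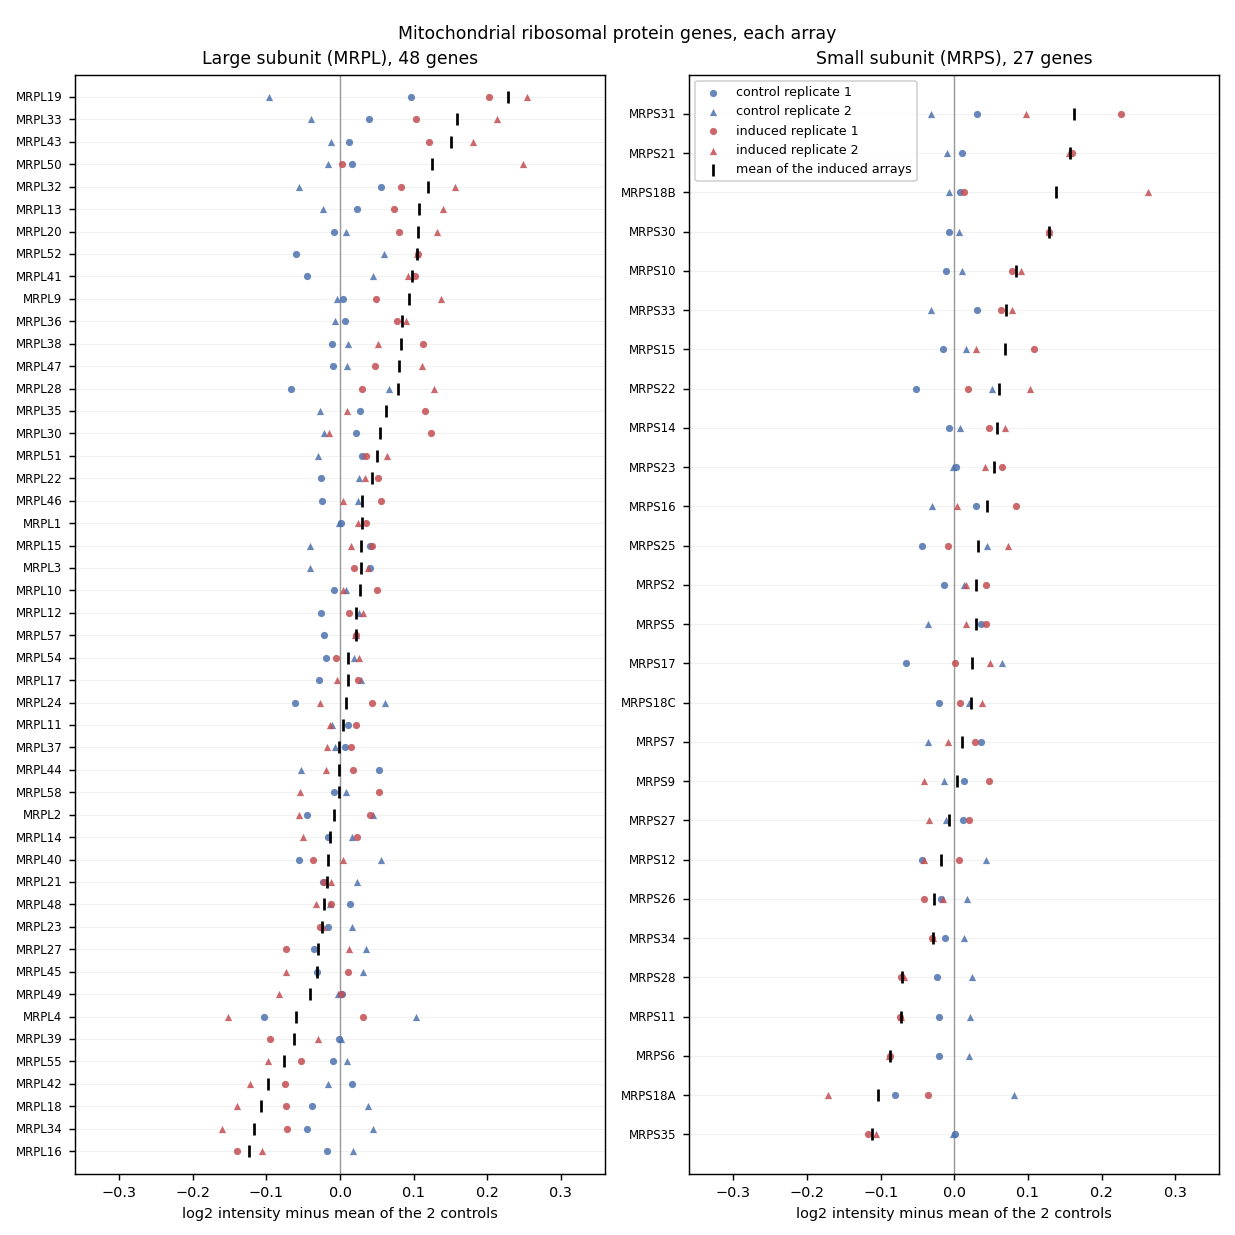
Log2 intensity of each of the 75 genes in each of the 4 arrays, minus the mean of its 2 controls (horizontal axis), with large-subunit genes on the left, small-subunit genes on the right and the mean of the induced arrays as a bar. The means of the 75 genes lie between MRPL16 at -0.12 and MRPL19 at 0.23.

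In the fit with the intensity trend, the precision of the arrays bounds how far the brightest probe sets of these genes could have moved. Standard errors of the differences ran from 0.031 to 0.09, with a median of 0.043. For 68 of the 75 genes the 95% interval of the difference, taken 1 gene at a time, lay wholly within a 1.2-fold change in either direction (0.26 on the log2 scale). The 7 genes with an interval reaching past it were MRPL4, MRPL19, MRPL33, MRPL50, MRPS18A, MRPS18B and MRPS31. The farthest bounds over the brightest probe sets were -0.28 and 0.40. Other probe sets had wider intervals, as from 0.07 to 0.55 for MRPL50 (mean 8.15) and from -0.64 to 0.17 for MRPL19 (dim, mean 5.31). Intervals were not computed without the trend. RMA makes the distribution of signals equal between arrays, so these bounds hold relative to the other genes on the array. The gap between replicates was of the same order as the difference between groups. The median gap was 0.043 between the controls and 0.047 between the induced arrays, and the median difference between groups was 0.053 in size. In 30 of the 75 genes (40%) the difference was larger than both gaps, beside 40.7% of the equally bright genes. The arrays of the groups did not overlap in 37 genes (49.3%), 25 higher and 12 lower, beside 43.9% of all genes and 53.9% of the equally bright ones. Without overlap, 4239 of all genes were higher and 4438 lower, and 1871 of the equally bright genes were higher and 1551 lower.

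The 10 named members with higher signals were taken by smallest unadjusted p among those whose groups did not overlap, and none passed after adjustment. That their groups lie apart is thus a condition of the choice. MRPS21, a small-subunit protein with a bacterial counterpart, gave 11.49 and 11.47 on the control arrays, against 11.64 on both induced ones. Its difference of 0.16 (SE 0.032, adjusted p = 0.472) was 1.116-fold, and both pairs of replicates were tight beside it. MRPS30 gave 10.69 and 10.70 on the control arrays, against 10.82 on both induced ones, a difference of 0.13 (SE 0.036). Its protein was named for the small subunit but lies in the large subunit of the assembled mammalian ribosome. Its other probe sets gave 0.04 and -0.09, and the average of its probe sets 0.027. MRPS31, a small-subunit protein without a bacterial counterpart, gave 9.51 and 9.45 on the control arrays, against 9.71 and 9.58 on the induced ones. Its induced arrays lay apart by nearly as much as the difference of 0.16 (SE 0.059). The difference was 0.098 without the first induced array and 0.227 without the second.

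MRPL19, a large-subunit protein of bacterial descent, had the widest difference of all members at 0.23 (SE 0.071, adjusted p = 0.472). Its control arrays gave 9.44 and 9.25, and its induced arrays 9.55 and 9.60. Without the low second control array the difference was 0.131, without the first control array 0.324, and with its probe sets averaged 0.05. MRPL33, a small protein with a bacterial counterpart, gave 11.89 and 11.81 on the control arrays, against 11.95 and 12.06 on the induced ones, 0.16 higher (SE 0.049). MRPL43, which has no bacterial counterpart, gave 9.70 and 9.67 on the control arrays, against 9.80 and 9.86 on the induced ones, 0.15 higher (SE 0.045). In both genes the second induced array was highest. MRPL33 was 0.103 higher without that array and 0.213 higher without the first induced array. MRPL43 was 0.073 higher with its probe sets averaged and 0.089 without probe sets ending in _x_at or _s_at.

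Another 4 large-subunit proteins of bacterial descent made up the rest of the higher genes. MRPL20, which in bacteria is needed early in the assembly of the large subunit, gave 11.24 and 11.25 on the control arrays, against 11.33 and 11.38 on the induced ones. MRPL36 had the tightest replicates of the 4, with 11.85 and 11.84 on the control arrays, against 11.92 and 11.93 on the induced ones, and differed by 0.08 (SE 0.031). MRPL32, whose protein must be cut by the mitochondrial m-AAA protease before it joins the ribosome, gave 12.02 and 11.91 on the control arrays, against 12.05 and 12.12 on the induced ones. Its first control array lay just under the first induced array. Its difference of 0.12 was 0.064 without the second control array and 0.175 without the first. MRPL13 gave 10.65 and 10.60 on the control arrays, against 10.70 and 10.76 on the induced ones, a difference of 0.11 (SE 0.043). MRPL20 was 0.034 higher with its probe sets averaged.

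The 10 named members with lower signals were taken in the same way, among those without overlap. They differed by -0.12 to -0.06, with adjusted p values from limma between 0.472 and 0.607. MRPL16, which in bacteria helps to place the transfer RNA at the peptidyl transferase centre, gave 10.37 and 10.40 on the control arrays, against 10.25 and 10.28 on the induced ones. Its difference of -0.12 (SE 0.040) was a 0.918-fold level. MRPS35, a small-subunit protein without a bacterial counterpart, gave 10.15 and 10.14 on the control arrays, against 10.03 and 10.04 on the induced ones, and differed by -0.11 (SE 0.040). In both genes the replicates were close. MRPL18, of the central protuberance, gave 11.30 and 11.37 on the control arrays, against 11.26 and 11.20 on the induced ones. MRPS6, a counterpart of a bacterial small-subunit protein, gave 11.25 and 11.29 on the control arrays, against 11.18 on both induced ones. MRPL42 gave 10.94 and 10.91 on the control arrays, against 10.85 and 10.80 on the induced ones, a difference of -0.10 (SE 0.039). Without the second control array MRPL18 differed by -0.069, and without the first by -0.145, in place of -0.11. These 5 genes are the members that were lower at an unadjusted p under 0.05.

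The other 5 lower genes had an unadjusted p above 0.05. MRPL34 gave 9.80 and 9.89 on the control arrays, against 9.77 and 9.69 on the induced ones, so that its first control array lay just above the first induced array. MRPS11, of the platform of the small subunit, gave 10.81 and 10.85 on the control arrays, against 10.76 on both induced ones. MRPS28 gave 10.28 and 10.33 on the control arrays, against 10.23 on both induced ones. For both genes the induced arrays were closer to each other than the controls were. MRPL55 differed by -0.08 (SE 0.047) and MRPL39, which lies near the polypeptide exit, by -0.06 (SE 0.040). Leaving out 1 array moved MRPL34 from -0.12 to -0.072 (without replicate 2 of either group), and to -0.161 and -0.16 (without the first control and the first induced array). It moved MRPS28 from -0.07 to -0.047 and -0.095 (without the second and the first control array). MRPL39 moved to -0.030 and -0.095 (without the first and the second induced array). After centring MRPS11 differed by -0.048, MRPS28 by -0.046 and MRPL39 by -0.038, where the median over all genes was 0.022. The 55 members outside these 20 genes ran from -0.10 to 0.14, 37 higher and 18 lower by sign, with a lowest adjusted p of 0.501.

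**Figure D2:**
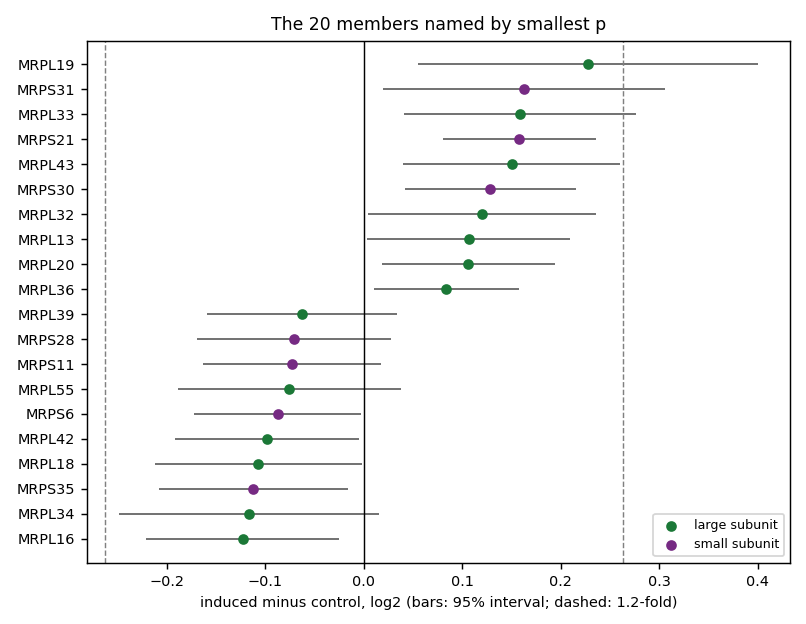
Difference (induced minus control, log2, horizontal axis) of the 10 higher and 10 lower members of smallest p, with 95% intervals as bars, subunits by colour and dashed lines at a 1.2-fold change. MRPL19, MRPL33 and MRPS31 reach past the upper dashed line, and none of the 20 reaches the lower one.

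The median difference was 0.022 over the 48 MRPL genes and 0.029 over the 27 MRPS genes, a large minus small median of -0.008. After cyclic loess the medians were 0.002 and 0.02, and after centring 0.046 and 0.054. The median over all genes moved as well, from -0.003 to 0.006 after cyclic loess and to 0.022 after centring. By sign 29 MRPL genes were higher and 19 lower, and 18 MRPS genes were higher and 9 lower. The shares on the higher side were 60.4% and 66.7%, beside 48.7% of all genes and 53% of the equally bright ones. Counting only an unadjusted p under 0.05, 7 MRPL genes were on the higher side and 3 on the lower, against 3 and 2 MRPS genes. These are 20.8% of the MRPL and 18.5% of the MRPS genes, beside 11.2% of all genes and 18.2% of the equally bright ones. Averaged over its genes, the large subunit gave 10.614 and 10.629 on the control arrays, against 10.650 and 10.643 on the induced ones. The small subunit gave 10.552 and 10.571 on the control arrays, against 10.588 and 10.583 on the induced ones. The induced arrays were higher by 0.025 for the large and 0.024 for the small subunit. Over the equally bright genes the mean was 0.015 higher, and for all 3 sets both induced arrays lay above both controls. The mean of the MRPL genes minus that of the MRPS genes gave 0.062 and 0.058 on the control arrays, against 0.062 and 0.060 on the induced ones. This contrast between subunits therefore moved by 0.001 between groups, less than the gap between the controls. Genes of a list are not replicates, so no test was made of it.

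**Figure D3:**
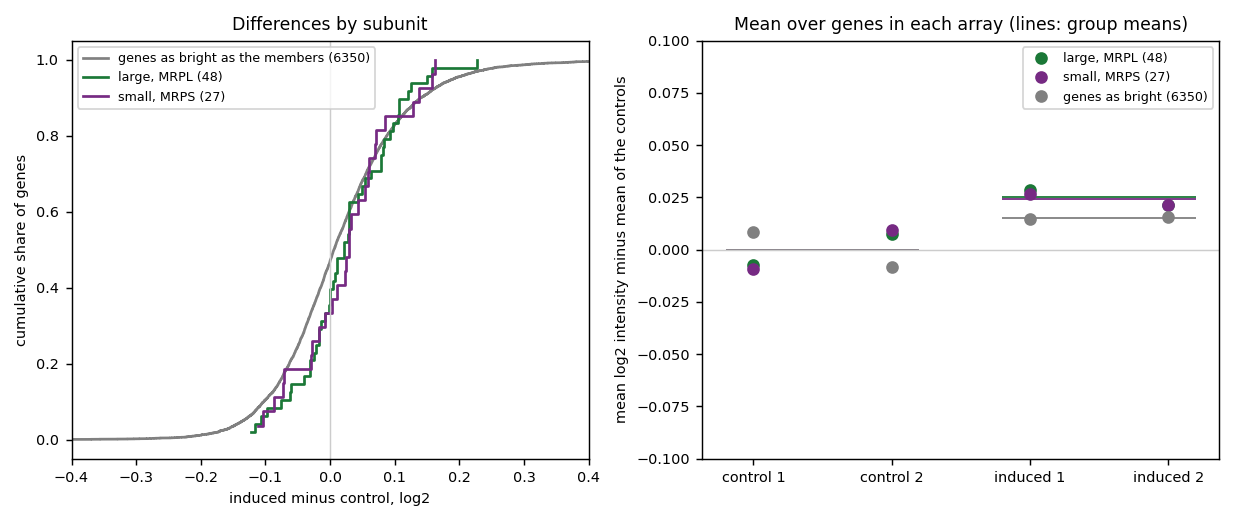
Left: cumulative share of genes (vertical axis) by log2 difference for the 48 MRPL genes, the 27 MRPS genes and the 6350 genes at least as bright as the dimmest member. Right: mean log2 intensity over each set in each array, minus the mean of its 2 controls, with group means as lines: the large and small subunits lie together at 0.025 and 0.024 after induction.

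Members were also grouped by their place in the ribosome. Among the 8 measured proteins of decoding and the mRNA channel, close to where tetracyclines act in bacteria, the median was 0.029. By sign 6 of them were higher and 2 lower, where 48.7% of all genes were higher. MRPS12, at the decoding centre, gave 11.16 and 11.25 on the control arrays, against 11.21 and 11.16 on the induced ones, a difference of -0.02 (SE 0.043) with groups that overlapped. MRPL10, MRPL11 and MRPL12, which form the stalk that recruits translation factors, and its base, differed by at most 0.03 and had no gene with groups apart. MRPL12 gave 11.47 and 11.52 on the control arrays, against 11.51 and 11.52 on the induced ones. The 8 proteins of the polypeptide exit had a median of 0.004 and the 8 of the central protuberance a median of -0.019. The decoding list and the protuberance each held 1 gene at an unadjusted p under 0.05 (12.5%, beside 11.2% of all genes), MRPS21 on the higher side and MRPL18 on the lower. For all 27 of these genes the 95% interval lay within a 1.2-fold change.

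Most of the proteins descend from the ribosome of the bacterial ancestor, and others joined it in mitochondria. The 45 genes with a bacterial counterpart had a median of 0.027, with 31 higher and 14 lower by sign. The 30 without one in the list used had a median of 0.016, with 16 higher and 14 lower. The shares on the higher side were 68.9% and 53.3%, beside 48.7% of all genes and 53% of the equally bright ones. MRPS18A and MRPS18B are among these 30, so the split follows the list and does not fully divide the genes by descent. MRPS18A, MRPS18B and MRPS18C are paralogues that descend from 1 bacterial protein, of which MRPS18A lies in the large subunit. MRPS18A gave 10.10 and 10.26 on the control arrays, against 10.14 and 10.01 on the induced ones, with groups that overlapped. Its difference of -0.10 (SE 0.071) was -0.184 and -0.022 without the first and the second control array, -0.171 and -0.036 without the first and the second induced array, and -0.045 with probe sets averaged. MRPS18B gave 10.66 and 10.65 on the control arrays, against 10.67 and 10.92 on the induced ones, and its difference of 0.14 (SE 0.079) was 0.262 without the first induced array, 0.013 without the second and 0.083 with probe sets averaged. MRPS18C gave 10.67 and 10.71 on the control arrays, against 10.70 and 10.73 on the induced ones. Adjusted p values from limma for the 3 paralogues were 0.580 to 0.868. Counting MRPS18A and MRPS30 with the large subunit left medians of 0.022 and 0.029 for the large and small subunits.

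Several probe sets read 37 of the genes, and they often disagreed in sign. Of the 65 probe sets that were not the brightest of their gene, 33 had the sign of the brightest one, and of the 54 among them that were brighter than the typical probe set (mean of 6.16 or more) 30 did. Over all 140 probe sets 17 had an unadjusted p under 0.05, which is 12.1%, beside 10% of all probe sets. In 4 genes the probe sets spanned more than 0.3. Those of MRPL19 ran from -0.23 to 0.23, where the negative one was dim (mean 5.31). Those of MRPS31 ran from -0.25 to 0.16, where the negative extreme was dim (mean 5.19), and its second bright probe set gave -0.03. For MRPL42 they ran from -0.10 to 0.22, where the highest was dim (mean 4.67). For MRPL50 they ran from -0.06, in a dim probe set (mean 4.5), to 0.31. The last value is the widest of all member probe sets, with 8.05 and 7.94 on the control arrays, against 8.16 and 8.43 on the induced ones. By contrast the 4 probe sets of MRPS15, chosen after their values were seen, all pointed up, from 0.07 to 0.22, and those of MRPS22 from 0.05 to 0.09. Averaging the probe sets of a gene turned the sign of 6 named members, MRPS31 (-0.039), MRPL42 (0.040), MRPS11 (0.017), MRPL39 (0.048), MRPS18C (-0.046) and MRPS12 (0.028). Leaving out probe sets that may match several transcripts (_x_at and _s_at) turned MRPL20 (-0.018), MRPL42 (0.221), MRPL39 (0.158) and MRPS18A (0.014). The probe sets that then read MRPL20, MRPL42 and MRPL39 were dim (means 6.01, 4.67 and 4.74). The averages of MRPS31, MRPL42, MRPL39 and MRPS18C also take in probe sets with a mean below 6.16. RefSeq holds 98 pseudogenes named after 39 of the 75 genes, 9 of them after MRPS21 and 8 after MRPL57. Signal from copies that match a probe set could not be told apart from that of the gene.

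**Figure D4:**
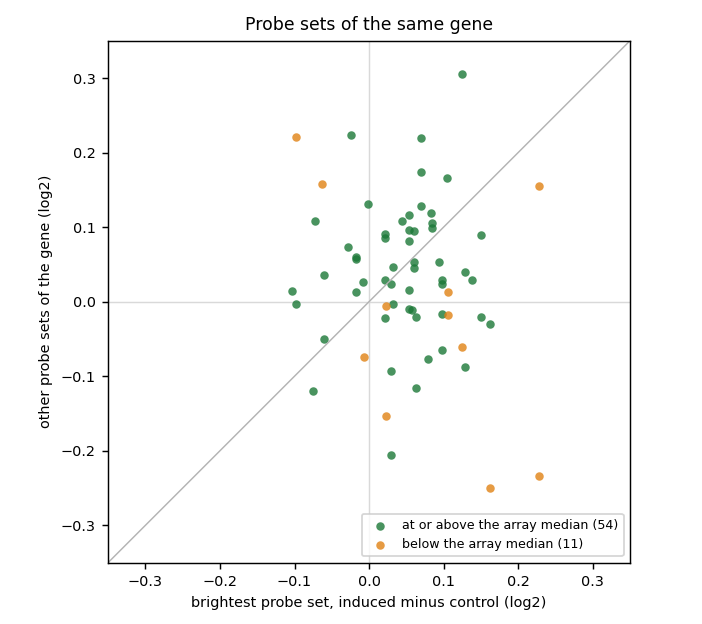
Log2 difference of each of the 65 other probe sets (vertical axis) against that of the brightest probe set of the same gene (horizontal axis), coloured by whether its mean lay below 6.16, with the line of equality. Points lie on both sides of each axis, with 33 of 65 on the same side of 0 as the brightest probe set.

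The promoters of these genes are a property that the rule did not use. RefSeq windows of GRCh38.p14, from 250 bases before to 50 after the start, numbered 83 for 67 of the 75 genes. Only the first listed window of each gene was used, so other starts were not searched. The windows used were searched on both strands for the cores of motifs of factors known to serve nuclear genes of mitochondria. These are the ETS family with its member GABPA (CCGGAAG), NRF1 (GCGCANGCG) and YY1 (AAGATGGCG), counted separately whether or not matches overlapped. The ETS motif was in 28 member windows (41.8%), beside 14.4% of the windows of 15384 measured genes and 23.2% of those of 5415 equally bright ones. YY1 was in 12 (17.9%), beside 2.76% and 5.08%. NRF1 was in 13 (19.4%), beside 11.2% and 17.7%. Members with an ETS match had a median difference of 0.052, and those without one 0.010. For YY1 these were 0.084 in 12 genes and 0.010 in 55, and for NRF1 0.021 and 0.029. These are descriptions without a test, over genes whose single differences did not pass.

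The last 120 bases before the start are shown for the member of smallest p (MRPS21), for the lower member of smallest p (MRPL16), and for MRPL20 and MRPL36, named members with 2 matches each in this stretch. Capitals mark motif matches that lie wholly before the start. MRPS21 lies on the plus strand at chr1:150293741-150293860, MRPL20 on the minus strand at chr1:1407294-1407413, MRPL36 on the minus strand at chr5:1799838-1799957 and MRPL16 on the minus strand at chr11:59810779-59810898.
MRPS21: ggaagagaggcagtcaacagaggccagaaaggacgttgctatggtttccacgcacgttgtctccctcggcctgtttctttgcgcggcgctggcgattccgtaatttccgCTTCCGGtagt
MRPL20: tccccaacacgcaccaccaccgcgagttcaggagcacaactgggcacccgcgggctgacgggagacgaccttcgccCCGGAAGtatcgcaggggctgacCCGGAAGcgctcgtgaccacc
MRPL36: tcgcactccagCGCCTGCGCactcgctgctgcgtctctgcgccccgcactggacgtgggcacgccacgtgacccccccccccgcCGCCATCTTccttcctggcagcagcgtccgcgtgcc
MRPL16: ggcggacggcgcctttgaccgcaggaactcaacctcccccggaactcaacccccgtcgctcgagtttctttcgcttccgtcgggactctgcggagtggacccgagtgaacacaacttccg
The match in MRPS21 is an ETS core on the reverse strand that begins 11 bases before the start. MRPL20 has 2 ETS cores on the forward strand, 44 and 21 bases before the start. MRPL36 has NRF1 and YY1 cores on the reverse strand, 109 and 36 bases before it. The stretch of MRPL16 holds no whole match, but an ETS core on the reverse strand begins 6 bases before its start and runs across it, so MRPL16 is among the 28 genes with an ETS match. Beyond the stretches shown, the windows hold an NRF1 core in MRPL20, 212 bases before the start, and a second ETS core in MRPS21, after the start.

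Other genes of mitochondrial translation were counted in the same way. Of the mitoribosomal proteins with other symbols 4 of 5 were measured, all between -0.05 and -0.02. CHCHD1 gave 11.03 and 11.14 on the control arrays, against 10.98 and 11.08 on the induced ones, and PTCD3, of the small subunit, differed by -0.02 (SE 0.041). KGD4, once named as a ribosomal protein (MRPS36) and now known as a part of the oxoglutarate dehydrogenase complex, was 0.14 higher (SE 0.060, adjusted p = 0.503), and 0.211 and 0.069 without the first and the second induced array. Among 25 measured assembly factors the median was 0.004. At an unadjusted p under 0.05 stood 3 of them, all higher (12%), beside the 11.2% of all genes. MRM2, a methyltransferase of the large ribosomal RNA, gave 11.23 and 11.18 on the control arrays, against 11.35 and 11.51 on the induced ones, 0.23 higher (SE 0.058, adjusted p = 0.472). It was 0.149 without the second induced array, 0.31 without the first and 0.128 with probe sets averaged. MTERF3 was 0.16 higher (SE 0.054), 0.104 without the second control array and 0.211 without the first.

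Of 13 measured translation factors of mitochondria 0 stood at an unadjusted p under 0.05, with a median of 0.017. The initiation factors MTIF2 and MTIF3 lay on either side, at 0.08 (SE 0.039) and -0.10 (SE 0.053, -0.022 with probe sets averaged). Among 13 genes that make or handle mitochondrial mRNA 3 were higher and none lower by the same threshold (23.1%). Beside them stand 11.2% of all genes and 18.2% of those at least as bright as the dimmest member. MTPAP, the mitochondrial poly(A) polymerase, was 0.26 higher (SE 0.080) and the transcription factor TFB2M 0.15 (SE 0.051). MTPAP was 0.150 without the second induced array and 0.36 without the first. It was 0.105 with probe sets averaged and 0.104 without those ending in _x_at or _s_at. TFB2M was 0.088 without the second control array, 0.214 without the first and 0.088 with probe sets averaged. For comparison, 52 of 77 listed proteins of the cytosolic ribosome were measured, with a median brightness of 13.61. Their median difference was 0.024, the same as that of the 75 mitochondrial ones. By sign 37 (71.2%) were higher and 15 lower, where 48.7% of all genes and 53% of the equally bright genes were higher. Of the 52 genes 3 (5.77%) had an unadjusted p under 0.05. This share lay below that of all genes (11.2%) and of the equally bright genes (18.2%). Among these 3 were RPS25 at 0.17 (SE 0.040) and RPL27 at 0.11 (SE 0.026). None of the genes in these lists passed limma's test after adjustment.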

How the data were processed

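Total RNA of 4 cultures was read on 1 array each. The deposited values are log2 intensities per probe set, which the authors computed by RMA (affy), per the submitters' processing notes; the version is not given in the sources used here. RMA equalises distributions between arrays, so a change common to most genes would not be seen, and small differences near the floor are compressed. After 62 control probe sets were left out, limma 3.58.1 (R 4.3.3) tested the differences (lmFit, eBayes with an intensity trend, 2-sided, Benjamini-Hochberg over 54613 probe sets, threshold 0.05, 6.27 degrees of freedom). The fit was also run on simulated data with planted changes larger than the differences of the members. It therefore does not show whether changes of their size could be found. With 2 arrays a group their number limits precision. Genes were named from the platform annotation; all 75 member genes matched RefSeq by gene identifier, with 0 symbols changed. Intervals are 95% from the same fit. Members, lists and tests were chosen with earlier results of these data known. Named genes were the 10 higher and 10 lower members of smallest p with a mean at or above 6.16 and no overlap, the MRPS18 paralogues, MRPS30, KGD4, MRPS12, MRPL12, 2 genes per other list, and genes whose probe sets span over 0.3. MRPL10, MRPL11, MRPS15, MRPS22 and MRPL4 were chosen after their values were seen. Alternatives were a replicate block, eBayes without trend or robust, filters on dim probe sets, centring, cyclic loess, averaged probe sets, no _x_at or _s_at probe sets, other subunit assignment, stricter and looser thresholds (0.01 and 0.1) and each array left out in turn.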

Additional observations from a re-analysis of the deposited data

How the results depend on the processing

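In every alternative run, including thresholds of 0.01 and 0.1, 0 of the members passed limma's adjusted test. At an unadjusted p under 0.05 stood 15 (20%) in the main fit, beside 11.2% of all genes. Same-numbered replicates were not shown to be paired (correlation of their deviations 0.056 over all probe sets). With the replicate block 7 members (9.33%) stood past this threshold, beside 8.15% of all genes. Without the intensity trend the count was 0, beside 7.75% of all genes. Without _x_at and _s_at probe sets it was 8 of 44 genes (18.2%), beside 10.8% of all genes in that fit. Leaving out each array gave 4 to 10 members. The median of the large subunit moved to 0.046 after centring arrays on their medians and 0.002 after cyclic loess, and lay between 0.007 and 0.035 with each array left out. That of the small subunit was 0.054 after centring, 0.012 without _x_at and _s_at probe sets, and 0.016 to 0.040 with each array left out. Over all genes the median was 0.022 after centring, 0.006 after cyclic loess and -0.01 to 0.003 with each array left out. Large minus small was -0.017 after cyclic loess, 0.005 with probe sets averaged per gene, 0.016 without _x_at and _s_at probe sets and -0.009 to 0.011 with each array left out. Of the 20 members named by p, 15 kept their sign in every alternative that gave a value. Most alternatives could not turn a sign, so this count is no test of stability. The 20 were chosen with groups apart, so leaving out an array cannot reverse them. The replicate block, the eBayes variants and the filters on dim probe sets leave the difference unchanged. Averaging changes nothing in genes without other probe sets. The genes of the 20 that turned, MRPL20, MRPS31, MRPL42, MRPS11 and MRPL39, all have several probe sets. Averaging probe sets turned MRPS31 to -0.039, MRPL42 to 0.040, MRPS11 to 0.017, MRPL39 to 0.048, MRPS18C to -0.046 and MRPS12 to 0.028. Without _x_at and _s_at probe sets MRPL20 was -0.018, MRPL42 0.221, MRPL39 0.158 and MRPS18A 0.014, and genes read only by such sets had no value. Centring turned MRPS12 to 0.007 and PTCD3 to 0.002. With each array left out MRPS12 ran from -0.061 to 0.026, MRPL12 from -0.003 to 0.047 and CHCHD1 from -0.105 to 0.000. The cause of these changes was not tested, and some alternatives leave fewer arrays or genes. Without _x_at and _s_at probe sets, MRPL20, MRPL42 and MRPL39 were read by other, dim probe sets (means 6.01, 4.67 and 4.74). The brightness of the probe sets limits what the dim second probe sets of a gene can show.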
